A study of Homo sapiens with 6 samples.

Results

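The DNA replication genes examined here encode the proteins that mark and open replication origins, copy DNA at the fork and supply its nucleotides. They are 43 genes, chosen by name, and all 43 had a transcript cluster of their own (a set of array probes for 1 transcribed locus) among the 18417 genes with a single symbol in the array's annotation. RNA of HEK293 cells, an established line made from human embryonic kidney cells with adenovirus DNA, was hybridised to 6 Affymetrix Gene 1.0 ST arrays, 3 labelled control and 3 labelled treatment. The stated question was which mediators of an anti-HIV effect go with transfection of an empty vector. According to the design text, control cells were untreated and the others received the plasmid pCMV9. The source field differs, with a transient vector named for control and a Neo vector for treatment, so the groups carry their label names here. Cells came from ATCC, the treatment is described only by citing earlier work, and no dose or time is given. Nothing says that replicates were separate cultures; the p-values then reflect array-to-array spread alone, possibly of technical origin.

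Replication of a chromosome starts at origins bound by the origin recognition complex, on which CDC6 and CDT1 load the ring-shaped MCM2-7 helicase. Joined by CDC45 and the GINS complex, the helicase unwinds DNA, and polymerase alpha with primase, polymerases delta and epsilon, the PCNA clamp, its loader RFC and the single-strand binder RPA copy the strands. Many of these genes are transcribed as cells pass from G1 into S phase, when E2F factors are freed from the retinoblastoma protein RB1. Adenovirus E1A, which HEK293 cells carry in both groups, binds RB1.

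No rise or fall of any of the 43 genes in the treatment arrays was established at the threshold, an adjusted p under 0.05. Each gene was tested with limma on log2(intensity + 16), as treatment minus control, and 0 of 43 had an adjusted p under 0.05, where 0.372% of all 33297 clusters did. At an unadjusted p under 0.05 stood 1 of 43, GINS2, where 7.30% of all clusters stood there and 2.29% did so as lower values. Changes lay between -0.42 for GINS2 and 0.15 for ORC6 on the log2 scale, with standard errors from 0.189 to 0.288. Without treatment replicate 3, an array that stood apart, they lay between -0.63 for GINS4 and 0.40 for POLE2, and ORC6 was at 0.02. With all arrays the 95% interval of each of the 43 changes lay inside -1 to 1, that is within a 2-fold change either way on this scale, with bounds from -0.89 (GINS4) to 0.77 (POLE2). That bound did not hold under every setting: without treatment replicate 3 the intervals of 3 genes (GINS4, TK1 and POLE2) passed it, with bounds from -1.02 to 1.05, and so did those of 2 genes without control replicate 3 (GINS4 and POLE2) and of RFC4 without treatment replicate 2. The same 3 genes passed it when no offset, or 1, was added before log2.

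Of the 43 genes, 28 had a change below 0 and 15 above, a share of 65.1% below, beside 48.2% of all clusters and 57.5% of the clusters brighter than the median cluster, to which all 43 genes belong. Their median change was -0.13, beside 0.01 over all clusters and -0.05 over those brighter clusters. Without treatment replicate 3 the count was 23 below and 20 above (53.5% below, beside 44.3% of all clusters and 48.6% of the brighter ones). The median was then -0.09, beside 0.04 over all clusters and 0.01 over the brighter ones. Leaving out another array gave 34 genes below 0 without treatment replicate 1 (79.1%) and 31 without treatment replicate 2 (72.1%). Without control replicate 1, 2 or 3 there were 29, 29 and 25 below 0. For these other arrays the shares of all clusters were not computed. The counts and medians are descriptions, with no test of the list. No fall of these genes was established at the threshold. In RNA from whole cultures, fewer cells in S phase and less RNA per cell could not be told apart in any case.

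Treatment replicate 3 stood apart from the other arrays. It had the lowest mean correlation with the rest (0.963, against 0.972 to 0.978) and the most extreme score on the first principal component, which held 37.8% of the variance. The change of each member without it is therefore also given below. Median intensity per array lay between 77.2 and 84.2. The listed HEK293 features (VIM, KRT8, KRT18, NEFL, NEFM, INA, PAX2, LHX1 and CDH2) were 9 of 9 above 56.7, the 95th percentile of mean intensity among olfactory receptor clusters, genes taken as silent here. Among these features PAX2 passed only through the treatment arrays, with a mean of 56.0 in control against 105.5 in treatment. Of the leukocyte markers 2 of 8 were above 56.7 (CD14 and TYROBP), and PTPRC, CD3E and CD3D were below. The summed intensity of the leukocyte markers was 877 to 1118 in control and 856 to 1051 in treatment arrays. Of the fibroblast markers 3 of 7 were above 56.7 (COL1A1, COL1A2 and COL3A1), with summed intensities of 505 to 691 in control and 463 to 626 in treatment. Of the hepatocyte markers 2 of 5 were above 56.7 (ALB and APOA1), with sums of 134 to 189 in control and 154 to 289 in treatment. COL1A2 and APOA1 likewise passed only through the treatment arrays, with means of 50.8 and 44.9 in control against 76.5 and 79.5 in treatment. The part of such cells in the results was not tested. The interferon-induced gene OAS2 gave 19.4, 29.8 and 41.2 in control against 728, 1305 and 1329 in treatment. It had the largest log2 change of all clusters (4.60) and was added with values known, so it is no independent check of the treatment.

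**Figure D1:**
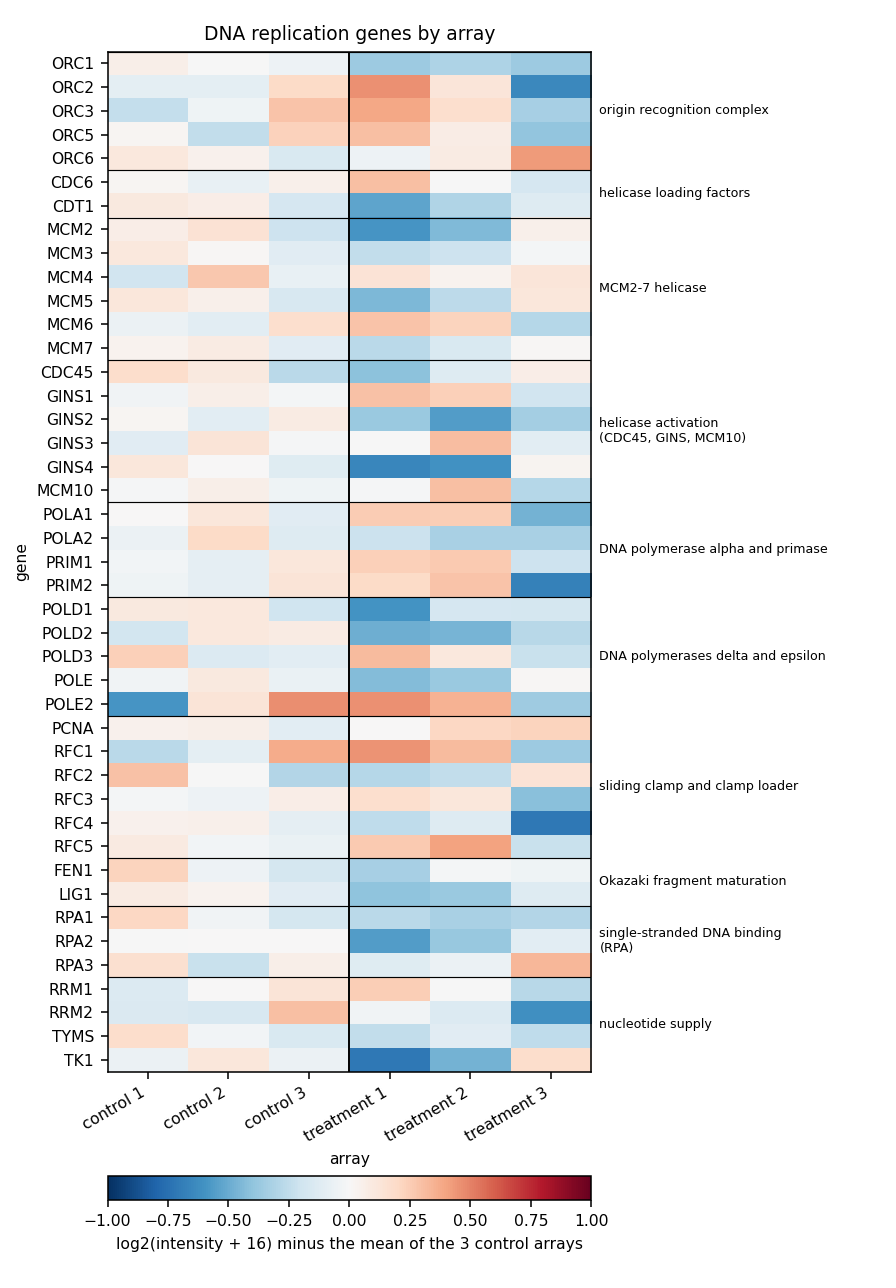
Heat map of the 43 DNA replication genes (rows, by role) on the 6 arrays (columns). Colour gives log2(intensity + 16) minus the mean of the 3 control arrays, from -1 (blue) to 1 (red). ORC1, GINS2, POLD2 and RPA1 are blue in all 3 treatment arrays, whereas ORC2, PRIM2 and POLA1 are red in treatment replicates 1 and 2 and blue in treatment replicate 3.

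Promoter sequences describe the members outside their measured values, and neither motif searched was common to all of them. RefSeq windows of 300 bases (250 before and 50 after a transcription start, GRCh38.p14) were held for 37 of the 43 genes, 46 windows in all. An E2F-type element, searched as TTTCCCGC, TTTCGCGC, TTTGCCGC or TTTGGCGC on both strands, was in a window of 18 of the 37 genes (48.6%). It was in 3.31% of all 35116 windows and in 3.99% of all 27305 genes with a window. The pentamer CCAAT, on both strands, was in 23 of the 37 (62.2%), beside 39.7% of all genes and 34.6% of all windows. Each motif was counted on its own, whether or not matches overlapped. A match describes letters in these windows and is no evidence of binding.

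The stretches around a match are shown for genes that the results below turn on, each on the strand of its gene, with the matching letters in capitals and up to 20 bases on each side. GINS2, POLA2 and LIG1 are among the genes whose groups did not overlap, MCM2 and MCM6 are subunits of 1 helicase with changes on opposite sides of 0, and CDC6, PCNA and TYMS represent loading, clamp and nucleotide supply. Of the other genes whose groups did not overlap, ORC1, POLD2, RFC4 and RPA1 had 0 E2F-type matches, and RPA2 had no window.
GINS2, chr16:85688958-85689005, minus strand: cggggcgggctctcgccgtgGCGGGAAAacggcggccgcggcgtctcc
POLA2, chr11:65261889-65261936, plus strand: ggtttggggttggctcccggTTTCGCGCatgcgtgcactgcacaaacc
LIG1, chr19:48170431-48170478, minus strand: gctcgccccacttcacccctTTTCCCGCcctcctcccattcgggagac
MCM2, chr3:127598393-127598440, plus strand: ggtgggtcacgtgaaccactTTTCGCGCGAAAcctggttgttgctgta
MCM6, chr2:135876568-135876615, minus strand: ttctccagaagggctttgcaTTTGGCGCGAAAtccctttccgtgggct
MCM6, chr2:135876506-135876553, minus strand: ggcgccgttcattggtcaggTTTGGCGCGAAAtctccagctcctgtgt
CDC6, chr17:40287866-40287913, plus strand: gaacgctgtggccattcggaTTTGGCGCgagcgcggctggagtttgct
PCNA, chr20:5126654-5126701, minus strand: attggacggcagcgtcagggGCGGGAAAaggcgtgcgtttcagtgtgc
TYMS, chr18:657594-657641, plus strand: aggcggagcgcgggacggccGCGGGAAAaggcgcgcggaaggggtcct
In MCM2 and in both stretches of MCM6 the matches on the 2 strands overlap, so the capitals form 1 run. The log2 changes of MCM2 and MCM6, which share this arrangement, were -0.33 and 0.07. The 18 genes with an E2F-type element had a median log2 change of -0.09, and the 19 with a window but no such element -0.13.

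To show the setting of the elements, the whole windows of GINS2, the gene with the lowest p, and MCM6, the gene with the most E2F-type matches, are given with E2F-type and CCAAT letters in capitals.
GINS2, chr16:85688905-85689204, minus strand: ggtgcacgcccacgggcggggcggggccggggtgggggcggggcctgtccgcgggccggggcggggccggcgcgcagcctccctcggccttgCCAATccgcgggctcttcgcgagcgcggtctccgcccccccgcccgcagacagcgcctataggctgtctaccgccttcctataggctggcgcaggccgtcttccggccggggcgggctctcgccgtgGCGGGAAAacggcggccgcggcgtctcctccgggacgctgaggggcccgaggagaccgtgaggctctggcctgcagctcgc
MCM6, chr2:135876394-135876693, minus strand: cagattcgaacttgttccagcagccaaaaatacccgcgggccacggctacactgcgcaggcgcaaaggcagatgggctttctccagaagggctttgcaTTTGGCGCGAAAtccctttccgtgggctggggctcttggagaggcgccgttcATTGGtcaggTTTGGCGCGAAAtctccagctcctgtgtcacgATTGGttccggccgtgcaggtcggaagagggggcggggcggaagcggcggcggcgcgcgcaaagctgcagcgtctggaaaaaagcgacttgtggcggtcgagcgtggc
The window of GINS2 holds 1 match to each motif, and that of MCM6 holds 4 E2F-type matches, paired in 2 overlapping runs, and 2 of CCAAT in the reverse orientation.

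**Figure D2:**
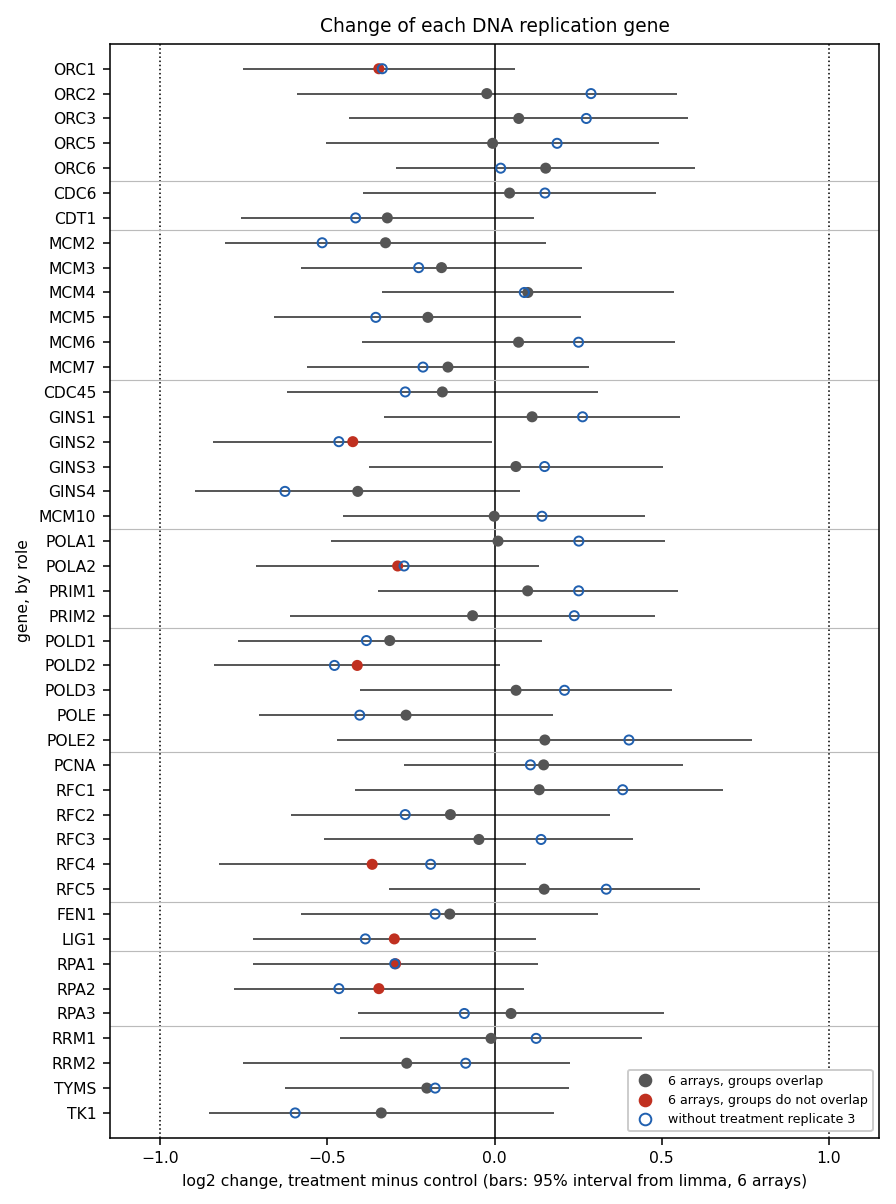
Log2 change (treatment minus control) of the 43 genes by role, filled points from all 6 arrays with 95% intervals from limma (bars), red where the 2 groups did not overlap, and open points without treatment replicate 3. Each interval lies between the dotted lines at -1 and 1, and 8 points are red, all below 0.

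In 8 genes every treatment array lay below every control array, and in 0 genes every treatment array lay above. The 8 were ORC1, GINS2, POLA2, POLD2, RFC4, LIG1, RPA1 and RPA2, or 18.6% of the 43. Such a gap with lower treatment values was found in 7.10% of all clusters and in 10.0% of the brighter clusters, and one with higher values in 7.47% of all clusters. After quantile normalization the gap held in 4 of the 8 (ORC1, GINS2, POLA2 and POLD2), 9.30% of the 43, near the 7.52% of all clusters. Without control replicate 3 the count was 15 (34.9%, against 10.8% of all clusters) and without treatment replicate 3 it was 16 (37.2%, against 14.0%). For these altered settings the share among the brighter clusters, to which all 43 genes belong, was not computed. Leaving out an array can add genes to this count but cannot remove any.

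Among the genes of the origin recognition complex, ORC1, the ATPase subunit whose protein varies through the cell cycle, had the clearest gap. Its intensity was 289.8, 278 and 268 in control against 213, 222 and 212 in treatment. Treatment arrays were thus the 3 lowest of 6, with a log2 change of -0.35 ± 0.189 (SE), and limma's adjusted p was 0.709. ORC6 gave 474, 453 and 394 in control against 424, 467 and 594 in treatment, and its groups overlapped, with treatment replicate 3 alone above every control array (0.15 ± 0.207). ORC3 had 1169, 1340.4 and 1685 in control against 1808, 1551 and 1095 in treatment, so the groups overlapped widely. ORC2, ORC3 and ORC5, which belong to the core of the complex together with ORC4, had changes of -0.02, 0.07 and -0.01 with all arrays and of 0.29, 0.27 and 0.19 without treatment replicate 3. ORC4, which is not among the 43, had a change of -0.07 with all arrays and 0.30 without that array. ORC1 and ORC6 then had changes of -0.34 and 0.02.

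The helicase loaders CDC6 and CDT1 had changes on opposite sides of 0, neither past the threshold. CDC6, an ATPase that joins the origin complex, gave 791, 739 and 809 in control against 966, 778 and 692 in treatment, a change of 0.04 ± 0.204 (SE). CDT1, which carries the helicase to the origin and is held by geminin, gave 437, 425 and 361 in control against 277, 326 and 369.8 in treatment. The groups of CDT1 overlapped through treatment replicate 3 alone, which exceeded control replicate 3, and the change was -0.32 ± 0.203 (limma, adjusted p = 0.742). Geminin (GMNN) had a change of 0.05 ± 0.206. Leaving out treatment replicate 3, the changes of CDC6 and CDT1 were 0.15 and -0.42. The difference between the 2 loaders was not tested.

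The 6 subunits of the helicase ring, which act in equal numbers, had changes on both sides of 0. MCM2 gave 509.7, 539 and 418 in control against 318, 354 and 505 in treatment, with treatment replicates 1 and 2 the lowest of all and replicate 3 among the controls. For MCM5 the values were 1004, 960.0 and 827 in control against 675, 771 and 1004 in treatment, again with treatment replicates 1 and 2 lowest. MCM3 gave 1107, 1036 and 950.1 in control against 864, 889.8 and 1013 in treatment, and here too treatment replicate 3 lay among the controls. The log2 changes were -0.33 ± 0.224 for MCM2, -0.20 ± 0.213 for MCM5, -0.16 ± 0.195 for MCM3 and -0.14 ± 0.196 for MCM7 (SE), with limma's adjusted p from 0.759 to 0.897. MCM4 and MCM6 had changes of 0.10 ± 0.203 and 0.07 ± 0.217. Without treatment replicate 3 the changes of MCM2, MCM3, MCM5 and MCM7 were -0.52, -0.23, -0.36 and -0.21, and those of MCM4 and MCM6 were 0.09 and 0.25, so MCM2 and MCM6 lay further apart. MCM2 then had an unadjusted p of 0.0227 and an adjusted p of 0.459 (limma).

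Of the factors that switch the helicase on, the GINS subunits had changes on both sides of 0. GINS2 (PSF2) had the lowest p of the 43 genes, with 533, 488 and 557 in control against 402, 352 and 412 in treatment. All 3 treatment arrays were below all 3 controls, from a mean of 526 ± 34.9 to 388 ± 32.1 (SD, n = 3). The log2 change was -0.42 ± 0.194 (SE), with a 95% interval of -0.84 to -0.01, an unadjusted p of 0.047 and an adjusted p of 0.681 (limma). GINS4 (SLD5) gave 173, 159 and 145 in control against 95.3, 99.2 and 162 in treatment, with treatment replicates 1 and 2 well below and replicate 3 inside the control range. Its change was -0.41 ± 0.226 with all arrays and -0.63 without replicate 3. GINS1 and GINS3, the other subunits of the 4-part complex, had changes of 0.11 ± 0.206 and 0.06 ± 0.204. CDC45, the third part of the active helicase, gave 626, 592 and 455 in control against 413, 505 and 579 in treatment, a change of -0.16 ± 0.216, and control replicate 3 lay among the treatment values. MCM10, which helps to start unwinding, had a change of -0.001 ± 0.21. With treatment replicate 3 left out, GINS1, GINS2 and GINS3 were at 0.26, -0.47 and 0.15, CDC45 at -0.27 and MCM10 at 0.14.

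In the polymerase alpha-primase complex, which lays down the first bases of each new strand, the B subunit POLA2 was the one with a gap. POLA2 gave 712, 846 and 675 in control against 636, 588 and 587 in treatment, so the highest treatment value was below the lowest control value. The change was -0.29 ± 0.196 (SE; limma, adjusted p = 0.756). The primase catalytic subunit PRIM1 gave 1435, 1372 and 1585 in control against 1729, 1757 and 1265 in treatment. PRIM2, the large primase subunit, gave 225, 216 and 255 in control against 267, 285 and 139 in treatment. In both primase genes treatment replicates 1 and 2 were above all controls and replicate 3 below them all. The changes of PRIM1, PRIM2 and the catalytic subunit POLA1 were 0.10, -0.07 and 0.01 with all arrays and 0.25, 0.24 and 0.25 without replicate 3, when that of POLA2 was -0.27.

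Polymerases delta and epsilon, which extend the lagging and leading strands, had changes below 0 in the catalytic subunits and in POLD2. POLD2, the second subunit of delta, gave 429, 528 and 522 in control against 345, 351 and 403 in treatment, with no overlap between the groups. The change was -0.41 ± 0.198 (SE; limma, adjusted p = 0.696). POLD1, the catalytic subunit of delta, gave 324, 326 and 260.3 in control against 194, 267 and 266 in treatment, and POLE, that of epsilon, gave 418, 459 and 409 in control against 312, 327 and 432 in treatment. For POLD1 control replicate 3 lay among the treatment arrays, and for POLE treatment replicate 3 lay among the controls, so both pairs of groups overlapped (-0.31 ± 0.211 and -0.26 ± 0.205). POLD3 and POLE2, accessory subunits, had changes of 0.06 ± 0.217 and 0.15 ± 0.288. Leaving out treatment replicate 3 gave -0.38, -0.48 and 0.21 for POLD1, POLD2 and POLD3, and -0.40 and 0.40 for POLE and POLE2. POLE2 had the largest standard error of the 43, and in control replicate 1 its intensity of 56.4 was about that of the olfactory receptor 95th percentile.

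PCNA, the ring that tethers polymerases to DNA and a common marker of proliferating cells, had a change above 0 that did not pass. It gave 1767, 1786 and 1589 in control against 1720.5, 1978 and 2004 in treatment, a change of 0.15 ± 0.194 with a 95% interval of -0.27 to 0.56. PCNA was among the 27 genes whose sign did not change under any of the 16 alternatives, with changes from 0.09 to 0.22. Some of these alternatives, such as the replicate block, leave every change as it was and could not alter a sign. Within the clamp loader, RFC4 gave 331, 333 and 300.1 in control against 267, 292 and 189 in treatment, without overlap between groups. RFC4 had a change of -0.37 ± 0.213 with all arrays and -0.19 without treatment replicate 3, its lowest array. RFC5 gave 312, 287 and 278 in control against 353, 392 and 248 in treatment, with treatment replicate 3 below and the other treatment arrays above the controls. The large subunit RFC1, RFC2, RFC3 and RFC5 had changes of 0.13, -0.13, -0.05 and 0.15 with all arrays, and 0.38, -0.27, 0.14 and 0.33 without treatment replicate 3. PCNA was then at 0.11.

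FEN1, the nuclease that trims the flaps between Okazaki fragments, and LIG1, the ligase that joins them, both had changes below 0. LIG1 gave 452, 437 and 394 in control against 320.3, 326 and 390.1 in treatment. The groups of LIG1 did not overlap, although treatment replicate 3 came within a few units of control replicate 3 (-0.30 ± 0.197). FEN1 gave 1159, 956 and 878 in control against 783, 976 and 959 in treatment, with treatment replicate 1 the lowest and the others among the controls (-0.13 ± 0.206). The changes without treatment replicate 3 were -0.18 for FEN1 and -0.39 for LIG1.

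RPA, the heterotrimer that coats single-stranded DNA, showed a gap in 2 of its 3 subunits. RPA1, the large subunit, gave 1427, 1209 and 1096 in control against 1023, 982 and 1008 in treatment. RPA2, the subunit phosphorylated under replication stress, gave 354, 358 and 356 in control against 237, 271 and 329.6 in treatment. In both genes all treatment arrays were below all controls, with changes of -0.30 ± 0.198 and -0.35 ± 0.201 (SE; limma, adjusted p = 0.753 and 0.722). RPA3 gave 230.1, 173 and 213 in control against 186, 195 and 260.3 in treatment, and its control and treatment values were interleaved (0.05 ± 0.212). Once treatment replicate 3 was left out, RPA1, RPA2 and RPA3 had changes of -0.30, -0.47 and -0.09.

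Of the 4 genes of deoxynucleotide supply, TK1, RRM2 and TYMS had changes below 0 and RRM1 one near 0, and each pair of groups overlapped. Thymidine kinase 1 (TK1), an S-phase salvage enzyme, gave 391, 444 and 392 in control against 243, 289 and 464 in treatment, so treatment replicate 3 was the highest array of all and the other treatment arrays were the lowest. RRM2, the regulated small subunit of ribonucleotide reductase, gave 921, 912 and 1263 in control against 993, 928 and 660.4 in treatment, with treatment replicate 3 the lowest. Thymidylate synthase (TYMS) gave 1518, 1317 and 1203 in control against 1129, 1239 and 1122 in treatment, and only treatment replicate 2 reached the control range. The changes were -0.34 ± 0.24, -0.26 ± 0.227 and -0.20 ± 0.197, and -0.01 for the large reductase subunit RRM1. Without treatment replicate 3 those of TK1, RRM2, TYMS and RRM1 were -0.60, -0.09, -0.18 and 0.12.

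Treatment replicate 3 differed from the other treatment arrays in both directions among the members. In 22 of the 43 genes treatment replicate 3 was below both other treatment arrays, in 17 above both and in 4 between them. Over all clusters it was below both in 43.5% and above both in 39.2%. The difference between replicate 3 and the mean of replicates 1 and 2 ran from -0.93 (ORC2) and -0.91 (PRIM2) to 0.65 (GINS4) and 0.77 (TK1) in log2 units. It exceeded 0.5 in size in 15 genes (34.9%, beside 33.4% of all clusters), a share near that of other clusters. The 8 genes without overlap had differences from -0.52 (RFC4) to 0.36 (RPA2).

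Control replicate 3 deviated from its group the opposite way in 29 of the 43 genes. Across the 43 genes the deviations of the 2 arrays had a Pearson's r of -0.66, and across all 33297 clusters of -0.36. Both are descriptions, since genes share the same arrays and are not independent.

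**Figure D3:**
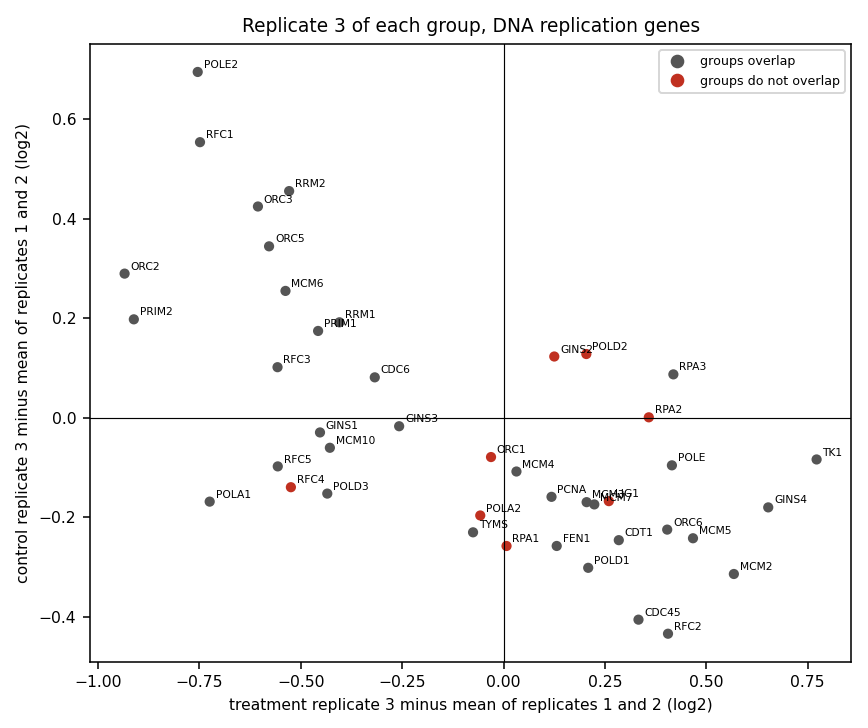
For each of the 43 genes, the deviation of replicate 3 from the mean of replicates 1 and 2, in the treatment group (horizontal axis) and in the control group (vertical axis), in log2 units. ORC2, PRIM2, POLE2 and RFC1 lie at the upper left and RFC2, CDC45 and MCM2 at the lower right, and red points mark the 8 genes whose groups did not overlap.

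Without treatment replicate 3, 0 of the 43 genes had an adjusted p under 0.05 (limma, lowest 0.427, for GINS4), where 0.276% of all clusters did. An unadjusted p under 0.05 was reached by 7 genes (16.3%), all lower in the treatment arrays: MCM2, GINS2, GINS4, POLD2, POLE, RPA2 and TK1. Of all clusters 10.2% reached it in either direction, and 4.18% as lower values. The groups then stood apart as lower in 16 genes, and as higher in 7 genes (MCM6, GINS1, POLA1, PRIM1, PRIM2, RFC3 and RFC5; 16.3%, beside 16.7% of all clusters).

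Other genes of the pathway were counted by lists, with changes from all 6 arrays. Of 13 other subunits and replication enzymes 0 passed, with MCMBP, an MCM-binding protein, at 0.28 ± 0.197, and the ribonuclease H2 subunits RNASEH2A at -0.32 ± 0.211 and RNASEH2C at -0.26 ± 0.211 (log2 change ± SE). Of 13 genes that control origin firing 0 passed, with the cyclins CCNA2 and CCNE2 at -0.21 and 0.14 and TICRR (treslin) at -0.13. Of 15 measured genes of fork protection and the S-phase checkpoint 0 passed, and the lowest p values were those of the clamp subunit HUS1 (-0.44), the PCNA unloader ATAD5 (0.38) and TIMELESS (-0.20). None of 8 chromatin assembly genes passed, among them the methyltransferase DNMT1 (-0.26), its partner UHRF1 (-0.25) and the histone chaperone ASF1A (0.25). Of 23 measured G1/S regulators 0 passed, with E2F4 at -0.38 ± 0.206, the kinase CDK4 at -0.31 ± 0.202 and MYBL2 at -0.26 ± 0.199. The cell-cycle inhibitor CDKN1A (p21) had a change of -0.09 ± 0.213, and E2F1 and RB1 of -0.27 ± 0.216 and 0.01 ± 0.255. Several of these values moved without treatment replicate 3, such as HUS1 to -0.25, CCNA2 to -0.03, CCNE2 to 0.36, E2F1 to -0.45 and RB1 to 0.23.

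Among these pathway lists, drawn up with earlier results known, only nucleotide metabolism beyond the 4 member genes held calls. Of its 19 measured genes 2 rose, 0 fell and 17 did not pass, where 0.372% of all 33297 clusters passed. Its median change was -0.14, with 15 genes below 0, so the calls describe 2 genes and not the list. SAMHD1, which breaks down deoxynucleotides and limits HIV in non-dividing cells, gave 838, 902 and 943 in control against 2073, 2307 and 2167 in treatment. The treatment arrays were all well above the controls, by 1.27 ± 0.192 on the log2 scale (SE; limma, adjusted p = 0.00549). Its call ended without control replicate 1 (adjusted p = 0.0596), without treatment replicate 2 (0.067), with no offset (0.125) and with 1 as the offset (0.104), while its change stayed between 1.22 and 1.31 over 16 alternatives. CMPK2, a mitochondrial pyrimidine nucleotide kinase induced by interferon, gave 66.5, 90.8 and 126 in control against 1242, 1549.5 and 1259.8 in treatment. The groups were far apart, and CMPK2 rose by 3.66 ± 0.232 on that scale (limma, adjusted p = 1.82e-06). The next lowest p was that of CAD, which starts pyrimidine synthesis, with 418, 483 and 442 in control against 299, 288 and 349 in treatment and -0.50 ± 0.196 as its log2 change (limma, adjusted p = 0.661, not past the threshold). IMPDH2, of guanine nucleotide synthesis, had a change of -0.43 ± 0.198.

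The replication genes were set beside 21 measured mitosis and proliferation genes, the list most like them. Of those 0 passed, 18 had a change below 0, and the median was -0.19. In 6 of the 21 (28.6%) every treatment array was below every control array, beside 8 of 43 (18.6%) for the replication genes. PLK1 and AURKB, mitotic kinases, and CDC20, an activator of the anaphase-promoting complex, had the lowest p, with changes of -0.37 ± 0.201, -0.36 ± 0.195 and -0.33 ± 0.191. By array, the median deviation from the control mean was -0.12, -0.06 and -0.21 in treatment replicates 1, 2 and 3 for the replication genes, and 0.02, 0.01 and -0.06 in the control arrays. The mitosis genes gave 0.04, -0.09 and -0.44 in the treatment arrays, and the clusters brighter than the median cluster 0.02, -0.02 and -0.17. The genes of other nucleotide metabolism gave -0.04, -0.10 and -0.34, so these and the replication genes had a negative median in all 3 treatment arrays. The difference between the lists was not tested. The mitosis median was -0.02 without treatment replicate 3.

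**Figure D4:**
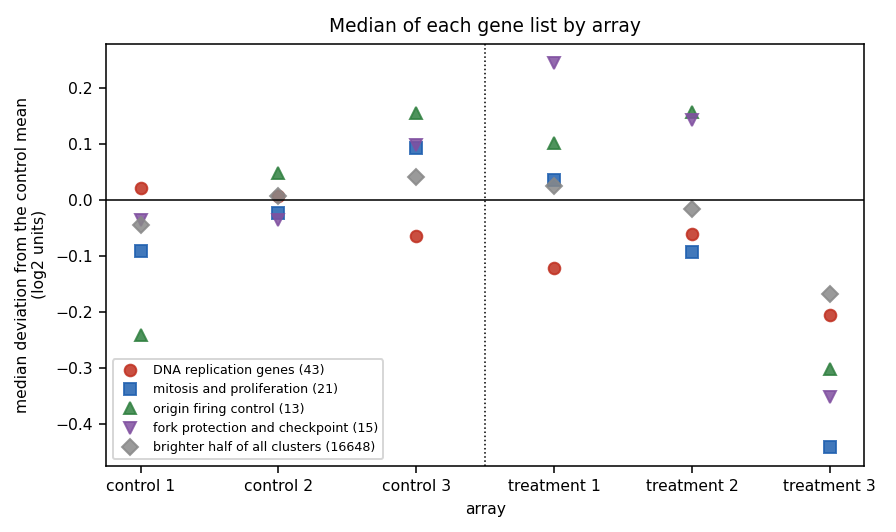
Median deviation from the control mean (log2 units, vertical axis) on each of the 6 arrays for the 43 DNA replication genes, 3 other gene lists and the clusters brighter than the median cluster. The replication genes lie at -0.12, -0.06 and -0.21 in treatment replicates 1, 2 and 3, and all 5 sets are lowest in treatment replicate 3.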

How the data were processed

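RNA of 6 samples was measured on Affymetrix Gene 1.0 ST arrays. Per the labels' protocols, total RNA came from an RNeasy kit, and the submitters' processing notes name Partek. The deposited values are linear intensities, 1 per cluster and array, and how the authors corrected, normalized and summarised probes is not given in the sources used. Intensities reached down to 3.73e-05, so 16 was added before log2. Symbols came from the platform annotation. A gene with several clusters was represented by the brightest, and each member had 1.

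All 33297 clusters were fitted with limma 3.58.1 (lmFit, eBayes) in R 4.3.3, two-sided, without a block, with Benjamini-Hochberg adjusted p (all clusters) under 0.05 as the threshold. "Rose" and "fell" mean past it. The pipeline was tested on simulated data. The number of arrays limits precision. Values on every array are given for the 3 members of each role with the lowest p (both where a role has 2), which include MCM2, CDC6, CDT1, PCNA, RRM2 and TYMS, set by the rule. Of the other lists the 3 genes with the lowest p and every called gene are named, by their log2 change, with values on every array for SAMHD1, CMPK2 and CAD. ORC4, GMNN, CDKN1A, E2F1, RB1, IMPDH2 and the interferon gene OAS2 fall outside this rule and were added with values known. The members and lists were chosen with earlier results of these data known. Promoter windows are RefSeq's, on GRCh38.p14.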

Additional observations from a re-analysis of the deposited data

How the results depend on the processing

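Of the 43 replication genes, 0 passed the threshold under any of the 16 alternatives, and the lowest adjusted p of a member was 0.427. Of all clusters, 124 passed, 40 on log2 without offset, 58 with an offset of 1, 105 with the replicate block, and 69 to 129 with 1 array left out. At an unadjusted p under 0.05, where 1 replication gene stood, there were 0 with the replicate block, an offset of 1, quantile normalization, a robust prior or the mean of a gene's clusters, 2 with arrays centred on their median, 4 with an offset of 50, and 0 to 7 with 1 array left out. The share of all clusters at that p was computed only with all arrays (7.30%) and without treatment replicate 3 (10.2%). The other counts, such as the 4 with an offset of 50, therefore have no background beside them. The deviations of same-numbered arrays had r of -0.17, 0.08 and -0.36, which gave no sign that replicate numbers pair the arrays. Differently numbered arrays had r from -0.19 to 0.36, the highest for control replicate 3 with treatment replicate 1. With 3 arrays per group these values cannot exclude a pairing. The median change of the replication genes stayed between -0.19 and -0.08. Under all alternatives 27 genes kept their sign. Alternatives that alter only the error estimate or the set of clusters fitted, such as the replicate block and the robust prior, leave each change as it was. The mean of a gene's clusters does so too, since each member had 1. Signs and medians could not move under these. Of the genes near 0, none of them called, the sign changed for MCM10 with an offset of 50 (2.53e-05), for ORC5, MCM10 and RRM1 with quantile normalization (0.0329, 0.0294 and 0.0249), and for CDC6, POLA1 and RPA3 with arrays centred on their median (-0.0112, -0.0457 and -0.00672). With 1 array left out, log2 changes that crossed 0 ran from -0.15 to 0.14 for MCM10, -0.16 to 0.19 for ORC5, -0.14 to 0.12 for RRM1, -0.0848 to 0.15 for CDC6, -0.11 to 0.25 for POLA1, -0.0904 to 0.13 for RPA3, -0.0833 to 0.27 for ORC3, -0.15 to 0.40 for POLE2, -0.0261 to 0.38 for RFC1, -0.28 to 0.0157 for RFC2, -0.0602 to 0.21 for POLD3, -0.26 to 0.29 for ORC2, -0.24 to 0.24 for PRIM2, -0.0332 to 0.25 for MCM6, -0.0572 to 0.15 for GINS3 and -0.15 to 0.14 for RFC3. The count of genes without overlap (alternatives added after the data were seen) was 8 without an offset and with 1 or 50 as offset, 9 with arrays centred on their median, 4 with quantile normalization, and 8 to 16 with 1 array left out. An offset cannot alter the order of the arrays within a gene, so the count could not change with it. For median centring, and for left-out arrays other than control or treatment replicate 3, the share of all clusters was not computed. The counts of genes below 0 and of intervals within a 2-fold change, added likewise, ran from 23 to 34 and from 40 to 43 over the alternatives. The list of other nucleotide metabolism had 1 call, CMPK2, in place of 2 where that of SAMHD1 ended: without control replicate 1, without treatment replicate 2, without an offset, or with 1 as offset. Dim signal limits POLE2 most.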
